A study of Mus musculus with 4 samples.

Results

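The 42 cell cycle and mitosis genes described here were taken by name from the 33696 genes counted in single nuclei of the injured mouse brain, and their unique molecular identifiers (UMIs, each standing for 1 captured transcript) were compared between cell types, regions and libraries. All 42 had a UMI in both libraries. The mice carried a photothrombotic (PT) lesion, a focal injury of the cortex that follows when light excites a dye in the blood, and were killed at 21 days post-injury (dpi). One group was labelled WT in genotype and is called control. The other carried Col1a2(creER), an inducible Cre recombinase driven by a collagen gene that is active in fibroblasts, together with Cxcl12(flox), and is called Cxcl12-cKO. All mice of both groups had the lesion, so no uninjured tissue entered the comparison. Tissue from 1 male and 1 female mouse was combined in each genotype, nuclei of lesion and of perilesional cortex (parenchyma) were marked with separate tags and mixed at 75% and 25%, and 1 gene expression library was made per genotype. With 1 library per genotype no test between genotypes was possible. Each interval in brackets is at the 95% level and covers counting error only, and each difference between libraries compares those libraries and not the genotypes.

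Genes of the cell cycle are switched on in sequence. Those for DNA synthesis are transcribed from late G1 into S phase, largely under E2F factors. Those for chromosome condensation, spindle assembly and cytokinesis follow in G2 and mitosis. Many of the latter are regulated by the DREAM and MuvB complexes through promoter elements called CHR (cell cycle genes homology region). In the injured cortex, microglia, macrophages, fibroblasts of the meninges and of the scar, and oligodendrocyte precursors are cell types known to divide. The members were placed in 8 role groups, which are cyclins and their kinase, replication, S phase transcription and chromatin, DNA repair, chromosome structure, kinetochore and checkpoint, spindle, and midzone and cytokinesis. Here "the S phase groups" are replication and S phase transcription and chromatin, and "the mitosis groups" are the cyclins, chromosome structure, kinetochore and checkpoint, spindle, and midzone and cytokinesis.

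The promoters of 6 members are shown, of which those of mitosis and replication differ in these elements as their role groups do. The sequences are from RefSeq on the build GRCm38.p6 and run 5′ to 3′ along the gene over the 150 bases before its start. Capitals mark matches on either strand to the CHR letters TTTGAA or TTCGAA, to the CCAAT box, or to the E2F letters TTTCCCGC, TTTGGCGC, TTTCGCGC or TTTGCCGC, and matches may overlap. Top2a (chr11:99024190-99024339, minus strand), Cdk1 (chr10:69352913-69353062, minus strand) and Kif11 (chr19:37376232-37376381, plus strand) belong to the mitosis groups. Mcm6 (chr1:128359706-128359855, minus strand) and Pola1 (chrX:93632156-93632305, minus strand) act in replication, and Rad51b (chr12:79297132-79297281, plus strand) in DNA repair.
Top2a: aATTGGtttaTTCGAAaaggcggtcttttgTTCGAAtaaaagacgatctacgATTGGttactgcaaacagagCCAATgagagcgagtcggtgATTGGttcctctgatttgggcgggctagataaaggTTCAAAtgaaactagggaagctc
Cdk1: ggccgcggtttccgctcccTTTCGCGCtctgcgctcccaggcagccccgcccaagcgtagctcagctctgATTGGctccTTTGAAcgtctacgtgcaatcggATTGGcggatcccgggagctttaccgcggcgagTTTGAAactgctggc
Kif11: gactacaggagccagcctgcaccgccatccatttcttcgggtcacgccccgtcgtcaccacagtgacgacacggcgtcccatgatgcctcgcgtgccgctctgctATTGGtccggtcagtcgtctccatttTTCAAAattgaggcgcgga
Mcm6: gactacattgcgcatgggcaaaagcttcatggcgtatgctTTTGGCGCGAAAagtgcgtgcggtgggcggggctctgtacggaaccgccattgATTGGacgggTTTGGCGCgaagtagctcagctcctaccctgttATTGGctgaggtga
Pola1: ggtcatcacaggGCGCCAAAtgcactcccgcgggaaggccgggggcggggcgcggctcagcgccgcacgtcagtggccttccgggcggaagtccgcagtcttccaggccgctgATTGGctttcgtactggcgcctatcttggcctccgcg
Rad51b: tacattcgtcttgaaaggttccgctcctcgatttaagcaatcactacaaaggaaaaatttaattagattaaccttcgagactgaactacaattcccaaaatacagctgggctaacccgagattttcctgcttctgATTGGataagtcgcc
Top2a held 3 CHR matches and 4 CCAAT boxes in these bases, Cdk1 held 2 of each and 1 E2F match, and Kif11 held 1 of each of the first 2 kinds. Mcm6 held 3 E2F matches and 2 CCAAT boxes and no CHR match. Rad51b held 1 CCAAT box only in these bases, but also a CHR match in the longer windows counted next. Promoters were found for 38 of the 42 members, and those of Atad2, Kif20a, Tpx2 and Ccna2 were not used. In the 300-base windows around the start, a CHR match stood in 24 of the 38 members (63.2%, against 21.7% of 27025 genes), a CCAAT box in 29 (76.3% against 41.1%) and an E2F match in 11 (28.9% against 2.60%). Within the mitosis groups 21 of 25 promoters held a CHR match (84%) and 4 held an E2F match (16%). Within the S phase groups 1 of 9 held a CHR match (11.1%) and 7 held an E2F match (77.8%). Within DNA repair 2 of 4 held a CHR match (Neil3 and Rad51b) and 0 held an E2F match. A match describes the letters of the window and not a bound site.

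After the outer 2.5 percentiles were removed, 21743 nuclei remained of 23489 barcodes, with 8095 lesional nuclei where the library was labelled control and 7933 where it was labelled Cxcl12-cKO. Lesional nuclei held a median of 2962 and 2975 UMIs and parenchymal nuclei 15915 and 16648. Between 9.75% and 14.3% of the nuclei of a matrix carried transcripts of both the male and the female mouse. No barcode was shared between the regions of a library, and 1 to 22 were shared between matrices of different libraries. Classes were rebuilt from clusters and are called "-like". The lesion gave 4164 and 4104 fibroblast-like nuclei (control first, here and in what follows), 1789 and 2301 myeloid-like, 122 and 104 T-cell-like, 211 and 115 endothelial-like and 22 and 28 precursor-like nuclei, the last named from oligodendrocyte precursor markers. All of the fixed markers were higher in their own class, with 8 of 8 for fibroblast, 10 of 10 for myeloid, 10 of 10 for precursor, 9 of 9 for T-cell and 8 of 8 for endothelial. Endothelial-like clusters also carried mural markers. Cxcl12 went against its label in fibroblast-like nuclei, which held 217.3 CPM (UMIs scaled to a sum of 1000000) in the library labelled Cxcl12-cKO against 106.1 CPM in that labelled control. It was also higher there in myeloid-like nuclei (32.5 against 17.0 CPM), and it lay close in endothelial-like nuclei (149 against 139 CPM). The counted reads may lie outside the deleted part, which the sources used here do not give. The cause of the difference was not tested, so the genotypes are named only as labels throughout.

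Summed over the 42 members, precursor-like nuclei had the highest level and endothelial-like nuclei the lowest of the 5 classes compared. The level was 2172 CPM [1870, 2509] and 2721 CPM [2445, 3019] in precursor-like nuclei and 1070 CPM and 1285 CPM in myeloid-like nuclei. T-cell-like nuclei held 1002 and 1069 CPM, fibroblast-like nuclei 598 and 797 CPM, and endothelial-like nuclei 549 and 560 CPM. The order was the same in both libraries, though the intervals of myeloid-like and T-cell-like nuclei overlapped in the library labelled control, as did those of fibroblast-like and endothelial-like nuclei. Myeloid-like nuclei were higher than fibroblast-like nuclei by 0.78 on the log2 scale [0.74, 0.81] over both libraries, and precursor-like nuclei by 1.84 [1.71, 1.96]. The precursor-like class held 50 lesional nuclei, and its level rested on how it was drawn. Its log2 difference from fibroblast-like nuclei was 0.57 at a Leiden resolution of 1.0, -0.25 with cell cycle genes kept in the clustering and -0.14 with each nucleus named by its own markers.

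**Figure D1:**
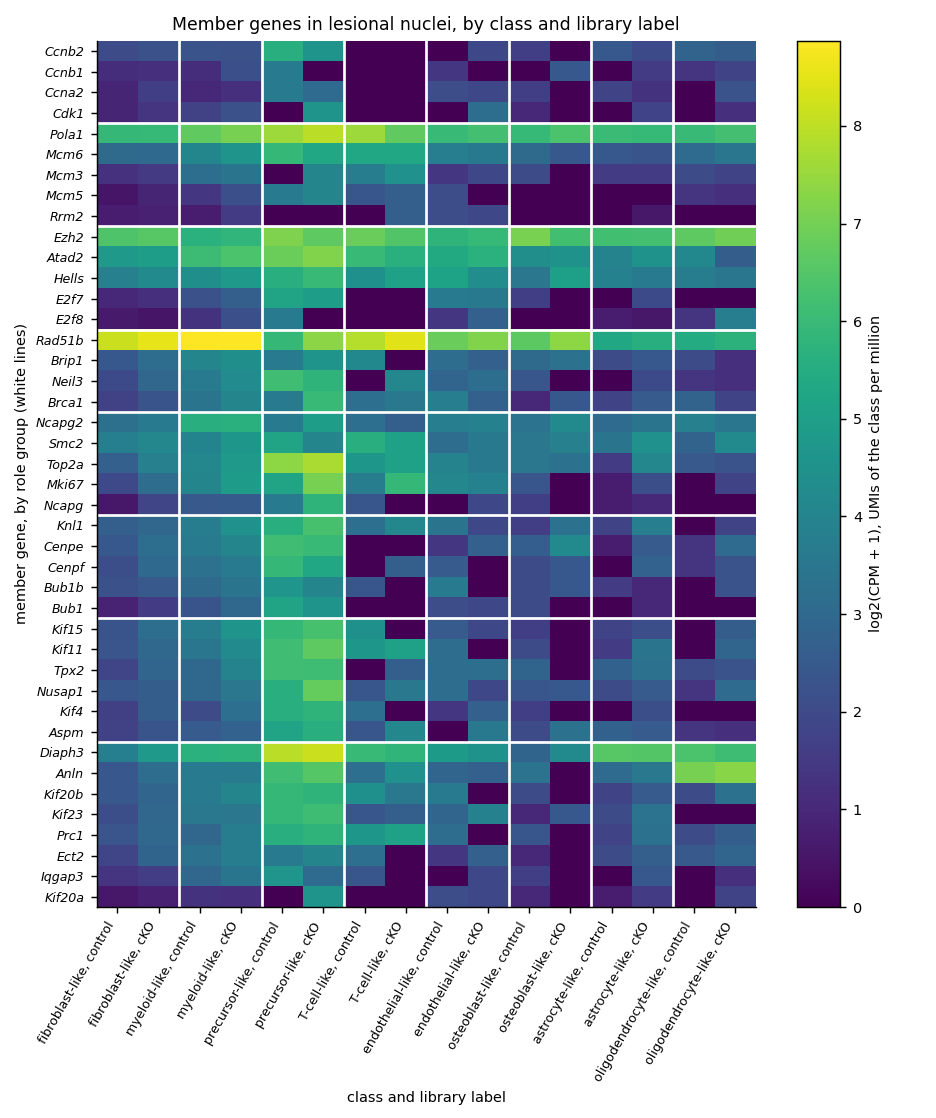
Level of each of the 42 members (rows, by role group) in lesional nuclei of each class and library (columns), coloured by log2(CPM + 1). Most members were highest in the precursor-like columns, where Top2a stood at 164 and 215 CPM, while Rad51b was highest in the myeloid-like columns, at 458 and 468 CPM. In the precursor-like class 9 of 50 nuclei held 76.3% of the members' UMIs.

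Of the 42 members, 34 were highest in precursor-like nuclei over both libraries, against 10.1% of the 19548 genes with at least 20 UMIs in lesional nuclei of the 10 classes, and 27 of these in each library on its own. The interval lay apart from that of the next class for 18 of the 34 and overlapped it for 16, and 9 of the 34 rested on 5 or fewer UMIs in the precursor-like class. In that class 9 of 50 nuclei held 76.3% of the members' UMIs. Those nuclei were named astrocyte-like when cell cycle genes were kept in the clustering. In the library labelled control, Mki67 in precursor-like nuclei rested on 3 UMIs of 1 nucleus. Levels are set side by side within a gene only, since UMI counts were not scaled to length. Top2a, the topoisomerase that untangles chromosomes, stood at 164 and 215 CPM in precursor-like nuclei, 25.1 and 32.6 CPM in T-cell-like, 16.1 and 26.7 CPM in myeloid-like, 14.6 and 11.0 CPM in endothelial-like and 5.66 and 13.5 CPM in fibroblast-like nuclei. Mki67, which coats mitotic chromosomes and is the usual marker of dividing cells, stood at 35.2 and 131 CPM in precursor-like, 15.5 and 28.8 CPM in myeloid-like, 12.5 and 59.7 CPM in T-cell-like and 2.86 and 8.04 CPM in fibroblast-like nuclei. Both genes were lower in fibroblast-like than in myeloid-like nuclei, in both libraries. The condensin subunits Smc2 (13.1 and 16.4 CPM in fibroblast-like, 15.1 and 25.2 CPM in myeloid-like nuclei) and Ncapg2 (8.73 and 11.4 CPM, 47.8 and 49.0 CPM) showed the same order, as did Ncapg (0.489 and 2.64 CPM, 4.61 and 4.73 CPM).

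In the cyclin group, Ccnb2 and Ccnb1 encode the mitotic B cyclins, Ccna2 the A cyclin of S and G2 phase and Cdk1 their kinase. Their UMIs were few, with 215 for Ccnb2, 103 for Ccnb1 and 88 each for Ccna2 and Cdk1 in all lesional nuclei. Ccnb2 stood at 47.0 and 23.1 CPM in precursor-like nuclei, against 3.07 and 3.58 CPM in fibroblast-like and 3.77 and 3.58 CPM in myeloid-like nuclei, so that these 2 classes lay close together. No UMI of the cyclin group was found in T-cell-like nuclei of either library.

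In the replication group, Pola1, the catalytic subunit of DNA polymerase alpha, had 4684 lesional UMIs, and Mcm6 and Mcm3, subunits of the replicative helicase, had 574 and 182. Pola1 was at 188 and 246 CPM in precursor-like, 188 and 103 CPM in T-cell-like, 104 and 133 CPM in myeloid-like and 59.8 and 60.5 CPM in fibroblast-like nuclei. Mcm6 was at 58.7 and 38.4 CPM, 37.6 and 38.0 CPM, 15.7 and 23.4 CPM and 7.33 and 7.23 CPM in the same classes. Mcm3 was highest in T-cell-like nuclei, at 12.5 and 21.7 CPM. Mcm5, of the same helicase, and Rrm2, of ribonucleotide reductase, were under 16 CPM in each of the 5 classes.

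In S phase transcription and chromatin, the histone methyltransferase Ezh2 (4408 UMIs), the bromodomain ATPase Atad2 (2252) and the chromatin remodeller Hells (1022) carried most of the counts. Ezh2 was at 84.8 and 94.6 CPM in fibroblast-like, 50.3 and 56.9 CPM in myeloid-like and 141 and 99.9 CPM in precursor-like nuclei. Its highest level over both libraries was in osteoblast-like nuclei (134 and 71.4 CPM), which in each library on its own lay below the precursor-like level. Atad2 was at 26.5 and 29.4 CPM in fibroblast-like and 66.0 and 81.2 CPM in myeloid-like nuclei, and Hells at 13.7 and 17.3 CPM and 20.3 and 26.2 CPM. The repressors E2f7 and E2f8 lay under 6 CPM in fibroblast-like and myeloid-like nuclei. Over both libraries E2f8 was highest in oligodendrocyte-like nuclei (1.52 and 12.8 CPM), on 11 UMIs and with an interval that overlapped the next. In the library labelled control alone it was highest in precursor-like nuclei, on 1 UMI.

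DNA repair was led by Rad51b, a gene of homologous recombination, whose 16265 lesional UMIs were 38.0% of all UMIs of the members. It was at 458 and 468 CPM in myeloid-like, 284 and 376 CPM in fibroblast-like, 234 and 358 CPM in T-cell-like, 113 and 143 CPM in endothelial-like and 58.7 and 161 CPM in precursor-like nuclei. This order of classes was not that of the other members, and Rad51b made up 47.5% and 47.2% of the members' UMIs in fibroblast-like nuclei but 2.70% and 5.93% in precursor-like nuclei. Without it, the summed level was 314 and 421 CPM in fibroblast-like, 612 and 818 CPM in myeloid-like, 768 and 711 CPM in T-cell-like, 436 and 416 CPM in endothelial-like and 2113 and 2559 CPM in precursor-like nuclei. Sums are therefore given with and without Rad51b below. Brip1, a helicase that binds Brca1, was at 4.47 and 8.11 CPM in fibroblast-like and 15.3 and 20.6 CPM in myeloid-like nuclei, Neil3, a DNA glycosylase, at 3.003 and 6.69 CPM and 11.3 and 18.5 CPM, and Brca1 at 2.30 and 3.99 CPM and 9.63 and 15.3 CPM.

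The kinetochore and checkpoint genes were Knl1, the scaffold of the outer kinetochore (5.45 and 6.62 CPM in fibroblast-like, 12.2 and 21.4 CPM in myeloid-like, 47.0 and 76.9 CPM in precursor-like nuclei), the motor Cenpe (4.47 and 8.18 CPM, 11.5 and 15.3 CPM, 70.4 and 61.5 CPM), Cenpf (3.35 and 7.10 CPM, 9.22 and 11.3 CPM, 58.7 and 38.4 CPM) and the checkpoint kinases Bub1 (0.838 and 1.96 CPM, 3.98 and 7.02 CPM, 35.2 and 23.1 CPM) and Bub1b (3.63 and 4.53 CPM, 7.33 and 9.75 CPM, 23.5 and 15.4 CPM). As a group they stood at 12.5 and 21.7 CPM in T-cell-like nuclei, below the myeloid-like level of 44.2 and 64.8 CPM. Of the spindle genes, the motor Kif15 was at 3.91 and 8.18 CPM in fibroblast-like, 12.6 and 22.9 CPM in myeloid-like and 58.7 and 76.9 CPM in precursor-like nuclei. Kif11, the motor that separates spindle poles, was at 4.12 and 7.03 CPM, 10.1 and 18.1 CPM and 70.4 and 99.9 CPM in the same classes, and Tpx2, which nucleates spindle microtubules, at 2.65 and 6.42 CPM, 6.91 and 14.8 CPM and 70.4 and 69.2 CPM. Kif4, Aspm and Nusap1 followed the same order of these 3 classes in both libraries.

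Of the midzone and cytokinesis genes, the formin Diaph3 (2025 lesional UMIs) was at 13.3 and 26.2 CPM in fibroblast-like, 50.1 and 52.7 CPM in myeloid-like and 247 and 284 CPM in precursor-like nuclei, and also at 94.5 and 90.5 CPM in astrocyte-like nuclei. Anln encodes anillin, a scaffold of the cleavage furrow that is also known from myelin. It was highest in oligodendrocyte-like nuclei, at 131 and 157 CPM, against 70.4 and 92.2 CPM in precursor-like, 11.3 and 12.04 CPM in myeloid-like and 4.26 and 8.04 CPM in fibroblast-like nuclei. None of the 444 oligodendrocyte-like nuclei was high for the separate cell cycle list described below, so that the level of Anln in this class stood apart from that of the other mitosis genes. Kif20b was at 4.33 and 6.35 CPM in fibroblast-like and 11.5 and 15.3 CPM in myeloid-like nuclei. Prc1, Kif23 and Ect2 lay between 2.58 and 12.6 CPM in those 2 classes, and Iqgap3 and Kif20a between 0.489 and 10.0 CPM.

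Neurons do not divide, and excitatory-neuron-like nuclei of the parenchyma gave one measure of the level found without division. When each nucleus was thinned to 1000 UMIs, a UMI of any member was found in 34.2% of fibroblast-like nuclei (63.9% unthinned, 207 nuclei left out), 47.3% of myeloid-like (71.4%, 219), 44.0% of precursor-like (78.0%, 0), 50.3% of T-cell-like (62.8%, 43) and 29.4% of endothelial-like nuclei (54.0%, 27), against 15.0% of these neurons (88.0%, 13). Median depths were 3086, 2287, 3704, 1364, 2236 and 17880 UMIs in that order. For the mitosis groups alone the shares were 5.98% in fibroblast-like, 14.1% in myeloid-like, 30% in precursor-like, 21.3% in T-cell-like and 11.0% in endothelial-like nuclei, against 7.24% in neurons. It was 22.8% in oligodendrocyte-like and 14.15% in astrocyte-like lesional nuclei, classes with no or 2 high nuclei by the count given below. The fibroblast-like share of nuclei with a mitosis UMI was thus not above that of neurons, and the myeloid-like share was not above that of either glial class. The T-cell-like share was not above the oligodendrocyte-like share, and its interval [15.6, 28.0] overlapped the astrocyte-like one [11.9, 16.7]. The precursor-like interval [17.9, 44.6] overlapped the oligodendrocyte-like one [18.9, 27.0]. No division is read from these shares. Top2a was found in 0.409% of fibroblast-like, 1.42% of myeloid-like and 14.0% of precursor-like thinned nuclei and in 0 of 4271 neurons, although 0.467% of the neurons held a Top2a UMI before thinning, against 0.992% of fibroblast-like nuclei. Mki67 was found in 0.335% [0.221, 0.487] of fibroblast-like nuclei, an interval that overlapped the 0.398% [0.232, 0.637] in these neurons, and in 1.40% of myeloid-like nuclei. Rad51b was found in 16.5%, 25.6% and 6.00% of fibroblast-like, myeloid-like and precursor-like nuclei and in 0.351% of neurons.

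To find nuclei with an active cell cycle program without using the members, 68 other cell cycle genes served as a reference list. A nucleus was called high where these held at least 0.5% of its UMIs from at least 3 genes. Most genes of the list act in mitosis, so nuclei in G2 and mitosis were favoured over those in S phase. In the lesion 38 of 8095 nuclei were high, and 89 of 7933. None was high among the 2877 and 2838 parenchymal nuclei or among 6329 neurons of both regions. Of fibroblast-like nuclei 13 of 4164 were high (0.312% [0.166, 0.533]) and 31 of 4104 (0.755% [0.514, 1.07]). Of myeloid-like nuclei 19 of 1789 were high (1.06% [0.641, 1.65]) and 47 of 2301 (2.04% [1.505, 2.71]). Precursor-like nuclei had the highest share, with 3 of 22 (13.6% [2.91, 34.9]) and 6 of 28 (21.4% [8.30, 40.95]). T-cell-like nuclei had 0 of 122 and 2 of 104, endothelial-like nuclei 1 in each library, osteoblast-like nuclei 2 and 0, and astrocyte-like nuclei 0 and 2. The split of high nuclei between classes rested on the clustering. With cell cycle genes kept in it, 0.0122% of fibroblast-like, 2.97% of myeloid-like and 0% of precursor-like nuclei were high over both libraries, against 0.532%, 1.61% and 18.0% without them. In that clustering 135 nuclei formed a cluster of their own led by Top2a, Neil3 and Mki67, which was named myeloid-like from a mean marker difference of 2.965 on the log2 scale, with fibroblast markers second at 1.945. Of the high fibroblast-like nuclei 12 of 13 and 31 of 31 were named myeloid-like there, and all 9 high precursor-like nuclei astrocyte-like. A further 9 fibroblast-like and 46 myeloid-like nuclei lay near the threshold, between 0.25% and 0.5% of UMIs.

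**Figure D2:**
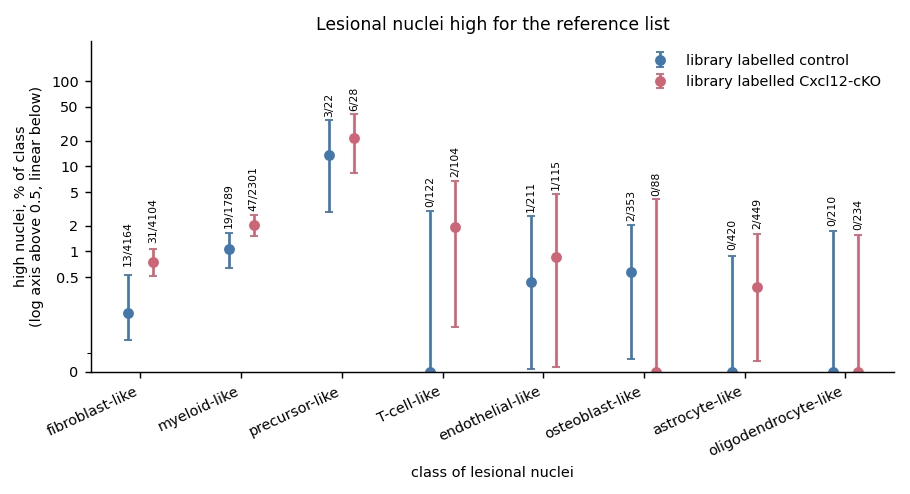
Share of lesional nuclei high for the reference list (percent) by class and library, with exact binomial intervals, on an axis that is linear below 0.5% and logarithmic above it. The fibroblast-like and myeloid-like shares were higher in the library labelled Cxcl12-cKO (0.755% against 0.312% and 2.04% against 1.06%), and the precursor-like shares had the widest intervals.

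High nuclei carried many members at a time. A high fibroblast-like nucleus held a median of 24.5 of the 42 members (8 to 34) and a high myeloid-like nucleus 22 (4 to 34), while the other nuclei of both classes held a median of 1. High nuclei were 0.532% of fibroblast-like nuclei and held 16.2% of the members' UMIs, or 28.6% without Rad51b. They were 1.61% of myeloid-like nuclei and held 26.6% and 38.7%. In the precursor-like class 9 of 50 nuclei held 76.3% of the members' UMIs. Mki67 was found in 39 of 44 high fibroblast-like nuclei and 55 of 66 high myeloid-like nuclei, Top2a in 40 and 58 and Diaph3 in 41 and 55, whereas Ccnb1 or Ccnb2 was found in 18 and 25. High nuclei had more UMIs than the others of their class, with medians of 4940 against 3082 in fibroblast-like and 3152 against 2274 in myeloid-like nuclei. Transcripts of both mice were found in 11.4% of high and 9.06% of other fibroblast-like nuclei, and in 4.55% and 11.5% of myeloid-like nuclei. The median Scrublet doublet score was 0.0582 against 0.0228 and 0.0453 against 0.0192. With the top 10% of Scrublet scores removed, the fibroblast-like share that was high was 0.301%. In high fibroblast-like nuclei the summed myeloid markers were at 34.7 and 58.4 CPM, against 68.1 and 87.6 CPM in the others. Their summed fibroblast markers were at 5290 and 6188 CPM, against 4568 and 4103 CPM. In high myeloid-like nuclei the summed fibroblast markers were at 440 and 346 CPM, against 1156 and 734 CPM. The summed myeloid markers were also lower in high myeloid-like nuclei, at 2955 and 2722 CPM against 4579 and 4497 CPM.

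The share of a member's UMIs that lay in high nuclei differed widely between members. In fibroblast-like nuclei of both libraries, 37 of the 42 were over 16-fold higher in high than in other nuclei, or 34 of the 39 with at least 20 UMIs, against 1.14% of the 16618 genes that passed that minimum. The median log2 difference of those 39 was 7.18, against 0.21 for all genes. The minimum counted UMIs of high and other nuclei together, here and in myeloid-like nuclei. With the high nuclei left out 32 fibroblast-like members passed it, so some of the 39 passed through their UMIs in high nuclei. For those members a large difference was set in advance. In myeloid-like nuclei 32 of 42 were over 16-fold higher, or 29 of 39, against 0.861% of 14758 genes, with a median of 5.89 against -0.06. Top2a stood at 987 CPM in high and 1.87 CPM in other fibroblast-like nuclei, and 80.7% of its UMIs were in the high ones. In myeloid-like nuclei it stood at 678 and 7.14 CPM (68.8%). Mki67 stood at 559 and 1.11 CPM in fibroblast-like and 738 and 6.79 CPM in myeloid-like nuclei. Diaph3 stood at 1620 and 7.201 CPM in fibroblast-like and 981 and 30.04 CPM in myeloid-like nuclei.

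The 5 largest differences in fibroblast-like nuclei were those of Bub1 (9.71 on the log2 scale [8.47, 11.5], with 36 UMIs in 44 high nuclei and 5 in 8224 others), Kif4 (9.47), Tpx2 (9.29), Iqgap3 (9.21) and Ncapg (9.16). In myeloid-like nuclei they were those of E2f7 (7.91), Aspm (7.80), Cenpf (7.52), Nusap1 (7.24) and Kif4 (7.14). Except for E2f7, an atypical E2F that acts as a repressor, all of these belong to the mitosis groups. At the other end in fibroblast-like nuclei stood Rad51b (1.72 [1.53, 1.90]), Ezh2 (2.79), Pola1 (2.91), Mcm6 (3.31) and Hells (3.55), and in myeloid-like nuclei Mcm6 (1.36), Rad51b (1.76), Mcm5 (1.82 [-1.59, 3.50], on 2 UMIs in high nuclei), Mcm3 (1.88) and Ncapg2 (2.40). Most of these act in DNA synthesis or on chromatin, and their UMIs lay mostly in nuclei that were not high. For Rad51b, 1070 CPM in high fibroblast-like nuclei stood against 325 CPM in the others, and 2.54% of its UMIs were in the high ones. Over the 42 members the log2 differences in fibroblast-like and myeloid-like nuclei had a Spearman rho of 0.74, which is a description over genes that share libraries and nuclei.

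**Figure D3:**
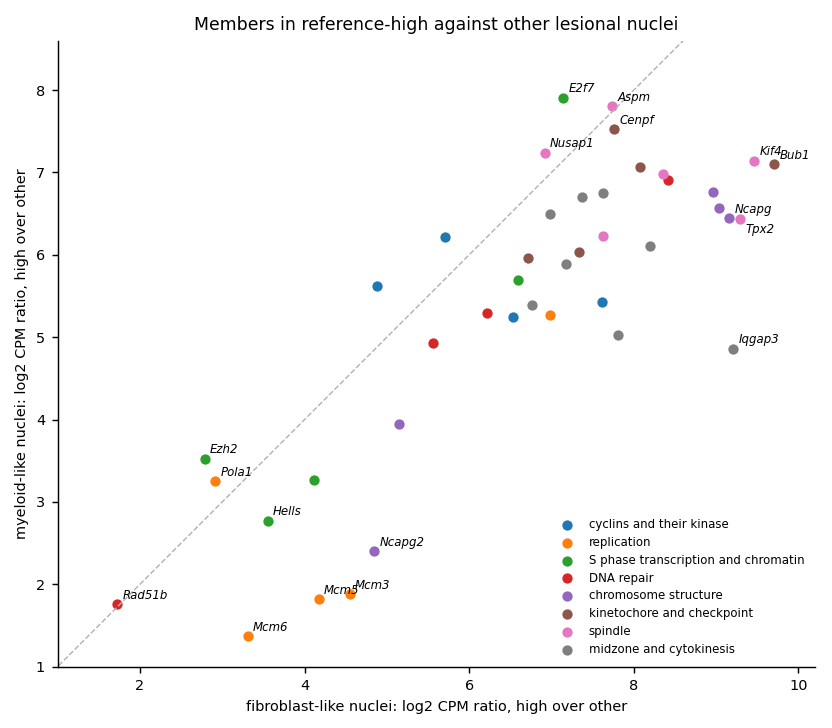
Log2 of the level (CPM) of each member in nuclei high for the reference list over that in the other nuclei of the class, for fibroblast-like (horizontal axis) and myeloid-like nuclei (vertical axis), coloured by role group, with a dashed line where both are equal. The mitosis groups reach 9.71 (Bub1, fibroblast-like), while Rad51b, Mcm6, Pola1 and Ezh2 lie at the low end in both classes.

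By role group, the median log2 difference between high and other fibroblast-like nuclei was 8.96 for chromosome structure, 8.05 for the spindle, 7.77 for kinetochore and checkpoint, 7.50 for midzone and cytokinesis, 6.12 for the cyclins, 5.89 for DNA repair, 4.17 for replication and 4.12 for S phase transcription and chromatin. In myeloid-like nuclei kinetochore and checkpoint (7.07) and spindle (7.06) came first and replication (1.88) last. Taking the S phase and mitosis groups together, the S phase groups held 14.8% of UMIs in high fibroblast-like nuclei and 74.6% in the others. The same shares were 22.5% and 59.98% in myeloid-like and 18.6% and 58.6% in precursor-like nuclei. Of the high nuclei, 1 of 44 fibroblast-like and 5 of 66 myeloid-like had more UMIs of the S phase groups than of the mitosis groups. Since the reference list holds mostly genes of mitosis, the order of the role groups and these shares depend on that choice. The part of the list in them was not tested. The genomic span of the member genes correlated with their level, in high (rho 0.66 in fibroblast-like, 0.71 in myeloid-like nuclei) and in other nuclei (0.57 and 0.62), whereas rho with the log2 difference was -0.0049 and -0.076. Rad51b has a long span, 517.4 kb. These 42 points share libraries and nuclei, and the part of span in the levels was not tested.

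Within the classes, the members followed the clusters unevenly. Of the fibroblast-like clusters, the one led by Eln and Mfap4 held 36 of the 44 high nuclei (of 2721 lesional nuclei), the one led by Slc47a1 held 7 of 2174, the one led by Lama1 and Slc7a11 held 1 of 740 and the one led by Ranbp3l and Ptgds held 0 of 2633. The summed members without Rad51b stood at 585, 275, 300 and 224 CPM in these clusters, and Rad51b at 192, 147, 1555 and 358 CPM. Rad51b was thus highest in the Lama1 cluster, where 1 nucleus was high. Of the myeloid-like clusters, the one led by F13a1 and Mrc1 held 51 of 2280 high nuclei, the one led by Siglech and Cx3cr1 12 of 1630, the one led by Il12b and Ccr7 3 of 119 and the one led by Ly6c2 0 of 61. Members without Rad51b stood at 855, 565, 712 and 208 CPM and Rad51b at 304, 766, 408 and 151 CPM. In both classes the cluster highest for Rad51b was not the cluster highest for the other members.

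Between libraries, the summed members were higher in the library labelled Cxcl12-cKO by 0.41 on the log2 scale [0.37, 0.45] in fibroblast-like, 0.26 [0.21, 0.31] in myeloid-like and 0.32 [0.06, 0.59] in precursor-like nuclei. The intervals covered 0 in T-cell-like (0.09 [-0.19, 0.37]) and endothelial-like nuclei (0.03 [-0.23, 0.28]). Without Rad51b the differences were 0.42 in both fibroblast-like and myeloid-like nuclei. In fibroblast-like nuclei 21 of the 39 members with at least 20 UMIs were over 1.5-fold higher in the library labelled Cxcl12-cKO, against 5.84% of all genes, and 0 were over 1.5-fold lower, against 4.06%. The median of the 39 was 0.75, against 0.01 over all genes. In myeloid-like nuclei 17 of 39 were over 1.5-fold higher, against 5.03%, and 0 were lower, against 5.81%, with a median of 0.57 against -0.02. Mcm5, E2f8 and Kif20a in fibroblast-like and Ccna2, Rrm2 and Kif20a in myeloid-like nuclei had under 20 UMIs. In both classes this minimum counted the UMIs of high nuclei. More of these were in the library labelled Cxcl12-cKO (31 against 13 fibroblast-like, 47 against 19 myeloid-like). With the high nuclei left out 32 fibroblast-like members passed it, so some of the 39 passed through those UMIs. For those members a higher value in that library was favoured in advance. As the members are counted in the same nuclei, they do not count as separate observations.

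Of the 10 members with the most UMIs, Top2a (1.25 on the log2 scale [0.87, 1.64]), Diaph3 (0.97 [0.72, 1.23]) and Anln (0.91 [0.46, 1.39]) were furthest apart between libraries in fibroblast-like nuclei, and Rad51b was at 0.41, Ncapg2 at 0.38, Hells at 0.34, Smc2 at 0.32, Ezh2 at 0.16, Atad2 at 0.15 and Pola1 at 0.02. In myeloid-like nuclei Smc2 (0.74 [0.34, 1.16]) and Top2a (0.72 [0.33, 1.13]) were furthest apart. There Hells was at 0.36, Pola1 at 0.35, Atad2 at 0.30, Ezh2 at 0.18, Anln at 0.09, Diaph3 at 0.07, Ncapg2 at 0.04 and Rad51b at 0.03. By role group the difference in fibroblast-like nuclei was 0.89 for midzone and cytokinesis, 0.87 for the spindle, 0.75 for chromosome structure, 0.68 for kinetochore and checkpoint, 0.49 for the cyclins, 0.43 for DNA repair, 0.18 for S phase transcription and chromatin and 0.03 for replication. In myeloid-like nuclei it was largest for the spindle (0.85) and smallest for DNA repair (0.08). The share of high nuclei was higher by 1.24 [0.30, 2.33] in fibroblast-like and 0.92 [0.15, 1.79] in myeloid-like nuclei. With high nuclei left out, the summed difference was 0.27 in fibroblast-like nuclei (0.12 without Rad51b) and 0.11 in myeloid-like nuclei (0.22 without Rad51b). In those fibroblast-like nuclei 5 of the 32 members with at least 20 UMIs were over 1.5-fold higher, against 5.49% of all genes, and 1 was lower, against 4.18%.

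**Figure D4:**
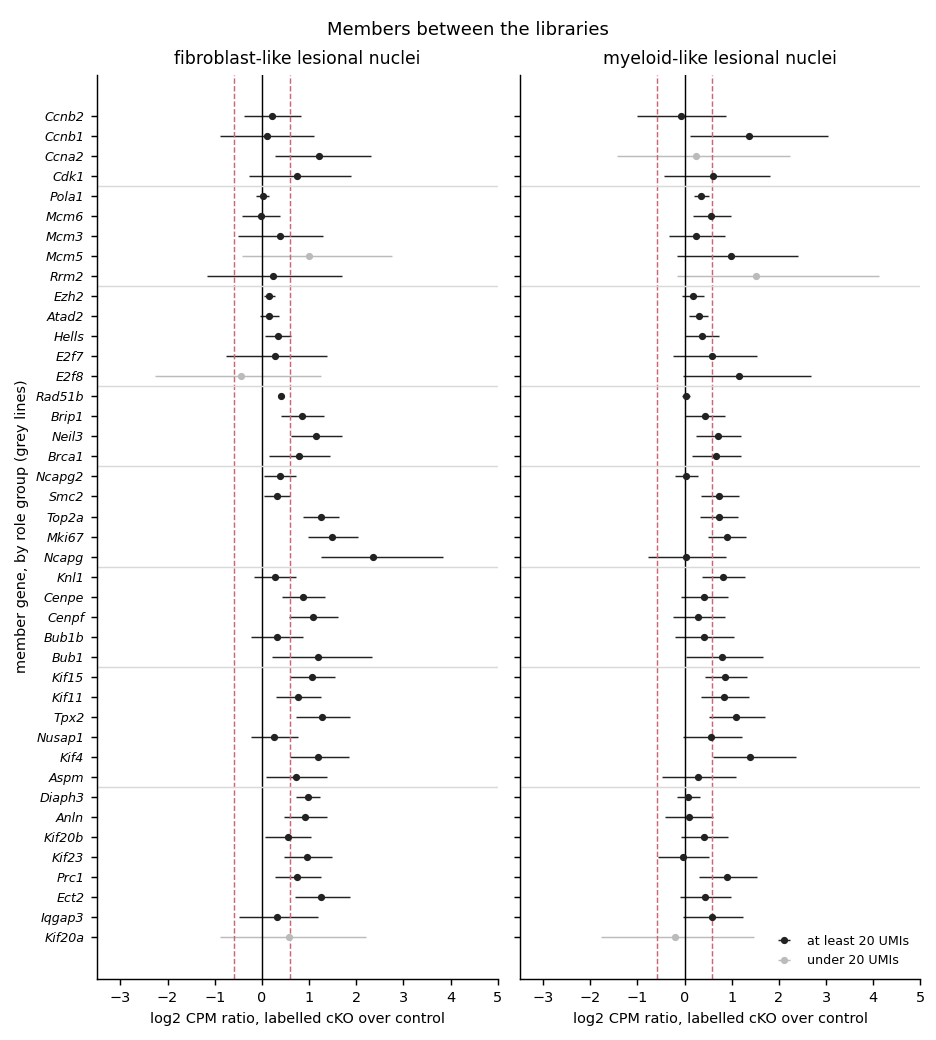
Log2 of the level of each member in the library labelled Cxcl12-cKO over that in the library labelled control, in fibroblast-like and myeloid-like lesional nuclei, with counting intervals, dashed lines at 1.5-fold and members under 20 UMIs in grey. Members with the most UMIs include Top2a at 1.25 and Pola1 at 0.02 in fibroblast-like nuclei, and no member passing the 20-UMI minimum was over 1.5-fold lower.

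The library differences were not alike in the female and the male mouse, of which each genotype had 1. Nuclei with sex-linked transcripts of both mice or of neither were left out here. In the library labelled Cxcl12-cKO these included 3 and 9 high myeloid-like and 3 and 5 high fibroblast-like nuclei. In that labelled control they included 0 and 3 high myeloid-like and 2 and 1 high fibroblast-like nuclei. Without Rad51b, the summed members in myeloid-like nuclei were at 451 CPM in the female labelled control, against 887 CPM in the female labelled Cxcl12-cKO. The males stood at 867 and 826 CPM. High nuclei were 2 of 692 and 26 of 1133 in the females (0.289% and 2.30%) and 14 of 540 and 9 of 530 in the males (2.59% and 1.70%). The female labelled control was thus the mouse that stood apart, and the pooled myeloid-like difference rested on the females. In fibroblast-like nuclei the summed members without Rad51b were at 303 and 487 CPM in the females and 330 and 370 CPM in the males, and the high share was 0.347% and 1.04% in the females and 0.259% and 0.5003% in the males. The fibroblast-like direction was thus the same in both sexes for these measures, with an interval over 0 for the high share in the males (0.87 on the log2 scale [-0.95, 3.13]). With Rad51b included and the males alone, the summed difference was -0.07 in fibroblast-like and -0.02 in myeloid-like nuclei on the log2 scale. Fewer members were past 1.5-fold than in the whole libraries. In fibroblast-like nuclei of the males 7 of 32 members with at least 20 UMIs were over 1.5-fold higher, against 4.98% of all genes, and 1 was lower, against 4.9%. The median of the 32 was 0.24 on the log2 scale, against 0.002 over all genes. In myeloid-like nuclei of the males 0 of 33 were higher, against 7.03%, and 4 were lower (Diaph3, Iqgap3, Kif20b and Kif23, named after their values were seen), against 7.37%. The median of the 33 was -0.07, against -0.02 over all genes. Rad51b itself stood at 200 and 512 CPM in fibroblast-like nuclei of the females and at 348 and 277 CPM in those of the males. With 1 mouse per sex and genotype, sex and mouse cannot be told apart.

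**Figure D5:**
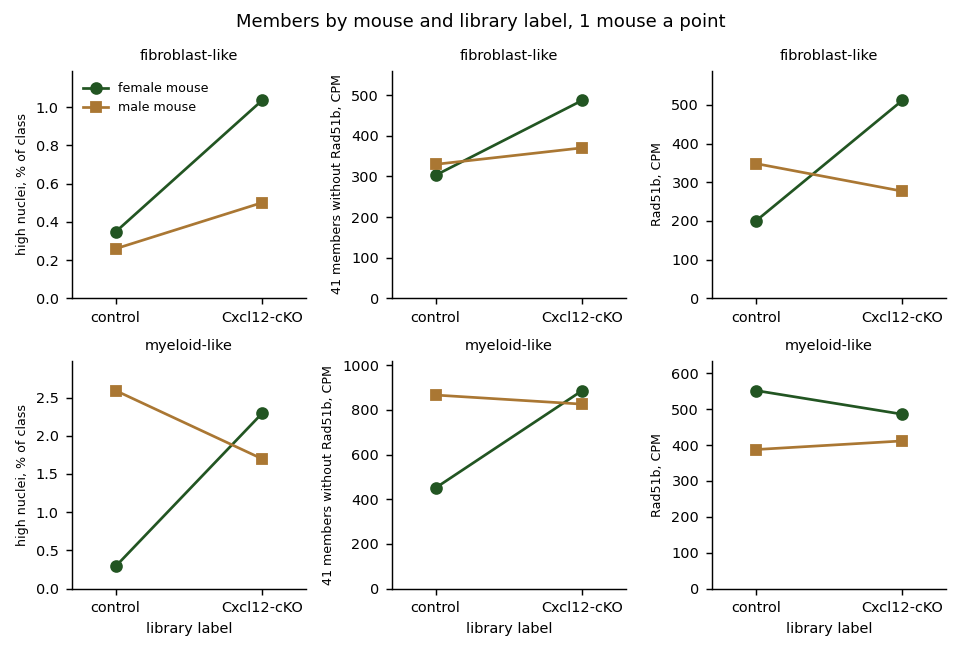
Share of high nuclei (percent), level of the summed members without Rad51b and level of Rad51b (both CPM) in each of the 4 mice, in fibroblast-like and myeloid-like lesional nuclei. Nuclei with sex-linked transcripts of both mice or of neither are left out. The female labelled control is lowest for the myeloid-like members without Rad51b (451 CPM) and for the myeloid-like high share (0.289%).

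Between regions and over both libraries, the members without Rad51b were higher in the lesion than in the parenchyma in fibroblast-like, myeloid-like, precursor-like and astrocyte-like nuclei, with intervals above 0. In the library labelled control alone, the astrocyte-like interval covered 0 (0.34 [-0.04, 0.78]). Over both libraries and without Rad51b, the log2 difference was 3.20 in precursor-like, 1.45 in myeloid-like, 1.23 [0.90, 1.61] in fibroblast-like, 0.70 in T-cell-like and 0.27 in endothelial-like nuclei, and with Rad51b it was 3.27, 1.46, 1.86, 1.17 and 0.59. It was 0.55 in astrocyte-like, -0.28 in oligodendrocyte-like, 0.04 in excitatory-neuron-like and 0.01 in inhibitory-neuron-like nuclei without Rad51b. The parenchyma held few nuclei of these classes, with 51 and 50 fibroblast-like, 32 and 46 myeloid-like, 18 and 10 precursor-like and 1 and 2 T-cell-like. The absence of high nuclei there allows shares of up to 2.97% in fibroblast-like, 3.85% in myeloid-like and 10.7% in precursor-like nuclei, so that a fibroblast-like or myeloid-like share like that of the lesion was not detectable. Without Rad51b the T-cell-like, endothelial-like, oligodendrocyte-like, excitatory-neuron-like and inhibitory-neuron-like intervals over both libraries covered 0. The oligodendrocyte-like difference was not alike in the libraries, at -0.75 [-1.13, -0.35] in that labelled control and 0.13 [-0.26, 0.56] in that labelled Cxcl12-cKO.

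The high nuclei also differed from the others of their class in genes that took no part in choosing them. In fibroblast-like nuclei the 4 leptomeningeal genes (Aldh1a2, Lama1, Ranbp3l, Slc7a11) were lower in high nuclei, at -2.44 summed on the log2 scale over both libraries (-1.12 and -3.41 within each), with all 4 intervals below 0. The 6 myofibroblast genes were higher by 0.99 (0.58 and 1.082), with 3 intervals above 0, among them Fn1 (fibronectin) at 1005 against 533 CPM. The 3 late inner genes were higher by 0.87 (1.09 and 0.70), with 2 intervals above 0, among them Sema3c at 336 against 106 CPM. The 4 dural genes were at -0.72 (-0.38 and -0.73). The 4 lymphocyte-interactive genes were at 0.51, with 1 interval above 0, that of Cxcl12 at 293 against 162 CPM, but at 0.22 [-0.71, 0.92] and 0.37 [0.03, 0.68] within each library, so that the interval covered 0 in the library labelled control. The clusters led by Ranbp3l and by Lama1 held 1 of the 44 high nuclei between them, and the part of cluster in these differences was not tested. In myeloid-like nuclei the 5 homeostatic microglia genes were at -1.48 in high against other nuclei over both libraries (4 intervals below 0), the 6 scar-associated genes at -0.65 (all 6), the 4 border-associated genes at -0.99 (1) and the 4 monocyte and dendritic genes at -1.84 (2). Within each library these were at -1.725 and -1.225, at -0.28 and -0.84, at -0.92 and -0.90, and at -1.33 [-3.83, 0.004] and -1.96, the last on 3 and 6 UMIs in high nuclei. The summed myeloid markers were lower in high myeloid-like nuclei as well, as given above. The part of that in the differences of these lists was not tested.

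The genes of G1 control and arrest differed in both directions. Of 22 listed, 7 were higher and 1 lower in high fibroblast-like nuclei with intervals clear of 0, and 11 and 1 in high myeloid-like nuclei. Summed, the list was at 0.72 and 0.28 in fibroblast-like and 0.58 and 0.63 in myeloid-like nuclei of each library on the log2 scale. Cdkn2c, an inhibitor of the G1 kinases that is known as an E2F target, was higher by 5.04 in fibroblast-like and 4.28 in myeloid-like nuclei on the log2 scale. Ccne1, the E cyclin that drives S phase entry, was higher by 3.48 [0.94, 4.93], on 3 UMIs in high nuclei, and 4.86, Rbl1, a pocket protein, by 3.47 and 2.69, the kinase gene Cdk2 by 2.30 and 2.40 and E2f1 by 2.68 and 1.75. Ccnd3, a D cyclin of G1, went the other way, with -2.43 and -3.47, and stood at 26.2 CPM in high and 153 CPM in other fibroblast-like nuclei.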

How the data were processed

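Nuclei were captured with the Chromium 3′ v3.1 chemistry and, per the labels and methods, processed by the authors with Cell Ranger 9.0.0 on GRCm39. What the authors deposited were UMI counts as whole numbers, unnormalized, in 4 matrices that split each library by region. Barcodes in the outer 2.5 percentiles of UMIs and genes and in the top 2.5 percentile of mitochondrial share were removed here, which left nuclei of 758 to 36243 UMIs. Counts were scaled to 10000, log-transformed and clustered with scanpy 1.11.5 and leidenalg 0.10.2 on 3000 variable genes, 30 components and 20 neighbours at a resolution of 0.5, higher than that of the study. Members, the reference list, the G1 and arrest list and sex-linked genes took no part in clustering.

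A cluster was named from fixed markers where at least 3 had a UMI in 10% of nuclei and the mean log2 fold over the median cluster was at least 0.5. This rule, the re-clustering of clusters in which precursor markers scored second, and the leaving unnamed of glial subclusters with markers of a non-glial class at 2 or more on the log2 scale were set after the clusters were seen. No nuclei were removed as doublets in the values reported, and removing the top 10% of Scrublet scores was an alternative. UMIs were summed by class, region and library and scaled to a sum of 1000000 (CPM). Log2 ratios had 0.5 added to each sum. Intervals were exact Poisson (sums), conditional binomial (ratios) or Clopper-Pearson (shares) from scipy 1.17.1, at the 95% level. The minimum for counts of genes past 1.5-fold or 16-fold was 20 UMIs over both libraries. Limits of a count of 0 used 3 counts. The steps were tested on simulated counts.

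A nucleus was assigned to the female or the male mouse where it held sex-linked transcripts of that sex only. Nuclei with transcripts of both sexes or of neither were assigned to no mouse and left out of the values by mouse. Promoter windows ran from 250 bases before to 50 after each start in RefSeq GRCm38.p6, and only their letters were used. Gene spans came from a GENCODE annotation of another build than that of the files and were used as lengths only. Members with full values were the 3 with the most lesional UMIs in each role group, the 10 with the most UMIs for the library comparison and the 5 highest and 5 lowest between high and other nuclei. Other genes came from the fixed lists, except the leading genes of clusters, Eln, Mfap4, Slc47a1, Ptgds, Il12b and Ccr7, chosen after their values were seen. The members and lists were chosen with earlier results of these data known. Of the alternatives, 17 were listed at the outset and 2 were added after the data were seen, which left out Rad51b or the high nuclei.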

Additional observations from a re-analysis of the deposited data

Results flagged for a closer look

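Each result here had opposite signs in the female and the male mouse. Each genotype had 1 mouse of each sex, so the differences between sexes were not tested. In fibroblast-like lesional nuclei the log2 ratio of Rad51b, library labelled Cxcl12-cKO over library labelled control, was 1.36 in the females and -0.33 in the males. In myeloid-like lesional nuclei the log2 ratio of the share of nuclei high for the reference list was 2.69 in the females, on 2 and 26 nuclei, and -0.58 in the males, on 14 and 9 nuclei. The log2 ratio of the summed members without Rad51b in the same class was 0.98 in the females and -0.069 in the males, where its interval [-0.18, 0.04] covered 0. For Rad51b in myeloid-like nuclei it was -0.18 in the females and 0.086 in the males [-0.07, 0.25].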

How the results depend on the processing

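No paired analysis was possible because each genotype had 1 library and no result came from a test. Of 235 values of the comparisons under the alternatives, 171 moved by less than their interval or, for counts, by less than 1.5 times, 58 moved by more and 6 changed sign. Log2 values are given for precursor-like and myeloid-like over fibroblast-like nuclei (1.84 and 0.78 as reported), for the summed library difference (0.41 fibroblast-like, 0.26 myeloid-like) and for the lesion over parenchyma in fibroblast-like nuclei (1.86).

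With cell cycle genes kept in clustering, precursor-like over fibroblast-like was -0.25, myeloid-like over fibroblast-like 1.49, the high shares 0.0122% (fibroblast-like), 2.97% (myeloid-like) and 0% (precursor-like), the log2 library ratio of the fibroblast-like high share -1.56, the library differences 0.26 and 0.32 with 4 fibroblast-like members past 1.5-fold, the S phase shares 0% and 18.3%, late inner genes 2.68 and homeostatic genes -2.31. The fibroblast-like high share there was 1 nucleus, so -1.56, 0% and 2.68 describe that nucleus. With each nucleus named by its own markers, precursor-like over fibroblast-like was -0.14, the high shares 0.810% (fibroblast-like) and 2.23% (precursor-like), the library differences 0.37 and 0.17 with 9 myeloid-like members past 1.5-fold, and lesion over parenchyma 1.28. Precursor-like over fibroblast-like was 1.65 at resolution 0.25, 0.57 at resolution 1.0 (high share 5.06%) and 1.26 with no filter on barcodes.

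With nuclei of both mice removed, myeloid-like over fibroblast-like was 0.83. With the highest Scrublet scores removed, the class differences were 1.55 (precursor-like) and 0.98 (myeloid-like), the fibroblast-like high share 0.301% with an S phase share of 11.0%, and the library differences 0.31, with 13 members past 1.5-fold, and 0.19. In the females alone precursor-like over fibroblast-like was 1.39, the library differences 0.99 and 0.45, the myeloid-like members past 1.5-fold 30, the myeloid-like high-share ratio 2.69, its S phase share 19.7% and its thinned share with a member UMI 50.0%. In the males alone the class differences were 2.24 and 0.91, the high shares 0.382% and 2.15%, the library differences -0.067 and -0.019 with 8 and 4 members past 1.5-fold, the myeloid-like high-share ratio -0.58, late inner genes 0.56, Rad51b in fibroblast-like nuclei -0.33 and Top2a in myeloid-like nuclei -0.073. Without Rad51b the class differences were 2.69 and 0.99, the myeloid-like library difference 0.42 and lesion over parenchyma 1.23. With the threshold at 0.25% of UMIs the myeloid-like high share was 2.74% and its S phase share 28.1%. With it at 1% the high shares were 0.145%, 0.244% and 0% (precursor-like) and the S phase shares 6.62% and 19.2%, and on thinned nuclei late inner genes were at 0.53. With high nuclei left out the library differences were 0.27, with 6 fibroblast-like members past 1.5-fold, and 0.11. The causes were not tested. The other minimums, the other pseudocount, the median-ratio scaling and equal weighting of nuclei moved none of the values they were run on beyond these bounds.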
